A study of Mus musculus with 16 samples.

Results

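Carboxylesterases and conjugating enzymes are the proteins with which the gut wall splits esters and then tags foreign and endogenous molecules for export. The members described here are all genes whose symbol marks them as a carboxylesterase (Ces), a UDP-glucuronosyltransferase (Ugt1 or Ugt2), a cytosolic or kappa glutathione transferase (Gsta, Gstm, Gstp, Gstt, Gsto, Gstk, Gstz) or a sulfotransferase (Sult). That symbol rule found 66 of the 22180 genes that had a probe set of their own on the arrays, and 52 of the 66 were bright enough in at least 1 group to be tested, among 18095 genes tested in all. A gene was tested where its highest group mean lay above 2.67, the dim level, which is the 30th percentile of probe set means. No member of the Ugt1 family could be read. Its transcripts share exons, and their symbols stood only on probe sets with several gene names. All values are log2 levels, in which a step of 1 is a doubling of signal, and differences are log2 differences ± SE from limma.

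The arrays measured RNA of small intestinal cells of mice labelled male and C57Bl/6, killed at 8 to 10 weeks of age. Wild-type crypt organoids, which are 3-dimensional epithelial cultures and are named epithelium in the plots, were harvested alone (n = 2 animals, P28 and P30) or after 24 h in basal medium below an insert with 0.4 µm pores that carried wild-type intestinal myofibroblasts (n = 2, the same animals). Those myofibroblasts, named fibroblasts below, were profiled alone (n = 3 animals, Pl_I, Pl_II and Pl_III) and with organoids (n = 3, the same animals). Adenoma cells came from 4 animals with the genotype Apc+/1638N (P21, P23, P34 and P36), in which 1 copy of the Wnt pathway brake Apc carries the 1638N change. P21 and P34 were each hybridised a second time, and these technical repeats were averaged, so that 14 biological samples entered the tests. The labels do not give the culture in which the adenoma cells were kept, and give "n=3" beside each adenoma animal without saying what was counted. The titles of P21 and P23 hold "T2" and those of P34 and P36 do not, with no key to that mark. For 1 fibroblast monoculture the labels give both Pl_II and Pl_III as its animal, and the title, Pl_III, was followed.

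Detoxification is usually told in steps. Carboxylesterases cleave esters, amides and lipid esters in the endoplasmic reticulum and prepare many prodrugs. Glucuronosyltransferases, glutathione transferases and sulfotransferases then attach a sugar acid, a glutathione or a sulfate, after which transporters of the ABC family export the product. In the small intestine the absorptive enterocytes of the villus carry most of this equipment, and transcription factors such as HNF4, HNF1, CDX and the nuclear receptors PPARα, PXR and CAR are known to drive many of its genes.

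Markers placed the samples as their labels do, with exceptions that bear on what follows. The 12 epithelial markers averaged 10.93 in organoids alone, 11.17 in co-cultured organoids, 9.54 in adenoma and 3.49 and 3.37 in fibroblasts alone and co-cultured. The 13 measured markers of absorptive enterocytes averaged between 11.02 and 11.11 in organoids alone, between 10.44 and 10.49 in co-culture, between 3.84 and 4.26 in adenoma and between 3.40 and 3.60 in fibroblasts. Adenoma cells were thus epithelial by their markers but nearly without enterocyte markers, and in these bulk samples fewer enterocytes and less RNA per enterocyte cannot be told apart. The fibroblast cultures carried 12 immune cell markers at a mean of 9.05 alone and 9.12 in co-culture, against 3.74 in organoids alone. Against the labelled sex, P28 and Pl_III carried Xist at 7.57 to 8.29 in both of their cultures, with Y-linked Eif2s3y at 2.53 to 3.20. In the remaining 10 samples Xist did not exceed 2.81, and Eif2s3y started at 7.37. Array medians lay between 3.48 and 3.58, and the small number of arrays limits the precision.

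Most members lie in clusters of related genes, while Gsta3, Gsta4, Gstk1, Sult1a1, Sult2b1, Sult4a1, Sult5a1, Sult6b1 and Sult6b2 stand apart from other members. The promoters of 4 members are printed here as examples. Ces2a, Ces2e and Ces2g stand in 1 carboxylesterase cluster on chromosome 8, and they part ways in adenoma. Ugt2a3, on chromosome 5, was among the genes that fell in co-cultured organoids, and of their windows only its own held a motif marked below. Sequences are the 250 bases before the annotated start, 5′ to 3′ on the strand of the gene, from RefSeq on GRCm38.p6. Capitals mark CAAAGT, part of the sequence bound by HNF4 factors, and GTTAAT, part of that bound by HNF1 factors, on either strand (CAAAGT reads ACTTTG on the other strand). Both were found by their letters alone.
Ces2a (chr8:104733753-104734002, + strand): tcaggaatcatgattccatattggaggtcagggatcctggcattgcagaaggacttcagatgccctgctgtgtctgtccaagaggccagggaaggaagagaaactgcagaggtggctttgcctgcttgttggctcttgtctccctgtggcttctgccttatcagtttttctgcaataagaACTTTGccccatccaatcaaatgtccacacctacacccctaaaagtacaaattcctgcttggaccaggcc
Ces2e (chr8:104926010-104926259, + strand): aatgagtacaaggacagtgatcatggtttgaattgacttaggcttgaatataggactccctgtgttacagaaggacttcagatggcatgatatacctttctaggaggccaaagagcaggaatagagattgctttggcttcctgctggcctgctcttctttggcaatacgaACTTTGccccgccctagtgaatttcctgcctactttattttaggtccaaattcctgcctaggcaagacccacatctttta
Ces2g (chr8:104961468-104961717, + strand): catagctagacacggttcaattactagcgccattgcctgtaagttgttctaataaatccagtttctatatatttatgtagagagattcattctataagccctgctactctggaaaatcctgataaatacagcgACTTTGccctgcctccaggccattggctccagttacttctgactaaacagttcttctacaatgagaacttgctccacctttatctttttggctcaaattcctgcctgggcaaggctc
Ugt2a3 (chr5:87337196-87337445, - strand): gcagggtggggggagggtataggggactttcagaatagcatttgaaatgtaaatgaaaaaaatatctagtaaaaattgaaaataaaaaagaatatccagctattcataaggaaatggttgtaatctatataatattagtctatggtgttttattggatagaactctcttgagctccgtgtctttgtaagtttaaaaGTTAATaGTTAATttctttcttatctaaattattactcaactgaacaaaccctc

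CAAAGT was present, on the strand opposite to the gene, in the windows of Ces2a, Ces2e, Ces2f and Ces2g, with its leftmost base at -70, -80, -92 and -117 from the start. Ugt2a3 held GTTAAT 2 times, at -54 and -47. Windows were found for 55 of the 66 members, 66 windows in all since some genes have several starts. CAAAGT was in 18.2% of them, against 12.6% of the 32851 windows of all genes, and GTTAAT in 16.7% against 6.43%. The windows with GTTAAT were in part those of Ces3b, Sult2a4, Sult2a6 and Sult3a2, which were left out as dim. Ces5a, Sult1a1, Sult2a3 and Sult2a5, which also held it, passed in no comparison. The others were those of Gsta3, Sult1d1 and Ugt2a3. The longer HNF4 sequence CAAAGTCCA was in 0% against 0.384%, and TTTATGG, a sequence bound by CDX factors, in 3.03% against 2.43%. Among the 36 windows of members lower in adenoma than in organoids alone CAAAGT was in 16.7% and GTTAAT in 5.56%. Among the 7 windows of members lower in co-culture 0 held CAAAGT and 1 held GTTAAT, that of Ugt2a3. GCGTG, the core bound by the aryl hydrocarbon receptor, was in 10.6% against 28.2%. TGACNNNGC, the core bound by the oxidative stress factor NRF2, was in 3.03% against 10.2%. Both strands were searched for every motif. Neighbouring members share ancestry, so these shares are descriptions and not independent counts.

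Organoids grown alone held the members at the highest family averages, and fibroblasts at the lowest. Averaged over the 52 tested members, the level was 7.26 ± 0.07 (SD, n = 2) in organoids alone, 6.64 ± 0.13 (SD, n = 2) in co-cultured organoids and 4.89 ± 0.13 (SD, n = 4) in adenoma. It was 3.56 ± 0.11 (SD, n = 3) in fibroblasts alone and 3.59 ± 0.07 (SD, n = 3) in co-cultured fibroblasts. The Gsta pair was the exception to this order, with 10.96 ± 0.02 in organoids alone, 10.77 ± 0.03 in co-culture and 10.93 ± 0.12 in adenoma. The Ugt2 family went from 8.46 ± 0.04 in organoids alone to 7.10 ± 0.14 in co-culture and 4.12 ± 0.30 in adenoma. The Sult1 family had the widest spread in adenoma, 5.15 ± 2.09.

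**Figure D1:**
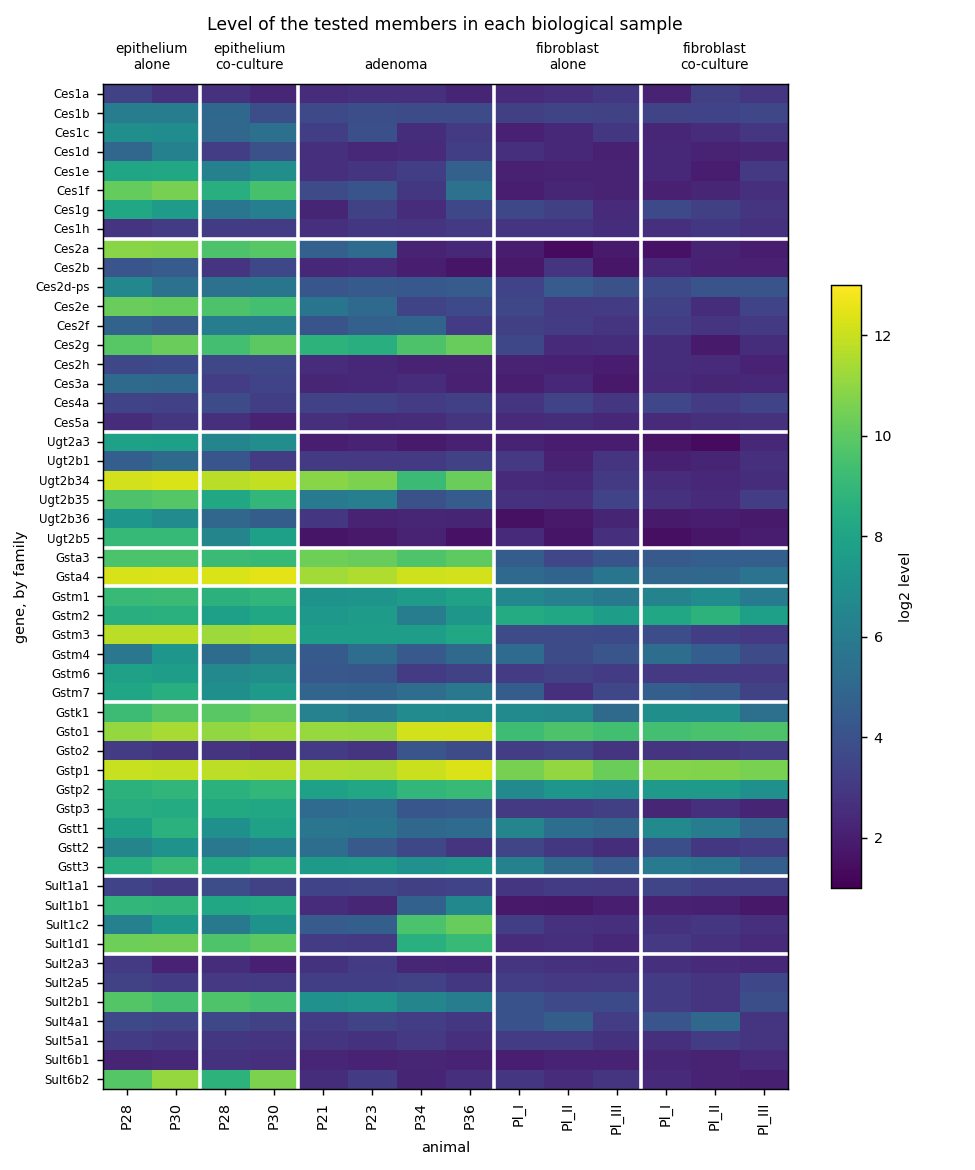
Log2 level (colour) of the 52 tested members (lines of the map, grouped by family between white lines) in the 14 biological samples (columns, named by animal and grouped by condition). The 2 Gsta genes, Gstp1, Gsto1 and Ces2g stay bright across organoids and adenoma, while most Ces1 and Ugt2 genes are bright only in the 4 organoid samples and Sult1b1, Sult1c2 and Sult1d1 differ between the adenoma animals.

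The comparison of co-cultured organoids with organoids alone asked how organoids differ when fibroblasts share their well. The labels describe the steps of the co-culture and do not state the medium of the cultures grown alone. Several carboxylesterases and glucuronosyltransferases were lower in co-culture, and no member was higher in the fit that leaves out the animal, while Ces2f and Gstk1 were with the animal as a block. Of the 52 members 8 fell, or 15.4%, where 1.32% of all genes tested fell, and 0 rose, where 2.71% of all genes rose (limma; 15 members had an unadjusted p under 0.05, in either direction). The 8 were Ces1b, Ces1c, Ces1d, Ces1g, Ces3a, Ugt2a3, Ugt2b36 and Ugt2b5. The median difference over the 52 members was -0.49, against -0.02 over all genes, and 45 of the 52 differences were negative.

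Among the glucuronosyltransferases, Ugt2b36 read 7.32 and 6.81 in organoids alone (P28, P30) and 4.98 and 4.55 in co-culture. Both animals were clearly lower in co-culture, by 4.93-fold on average (-2.30 ± 0.28, adjusted p = 0.00181 by limma). Ugt2b5 read 9.03 and 9.02 alone and 6.45 and 7.78 in co-culture (-1.91 ± 0.39, adjusted p = 0.0195). Its fall was larger in P28 than in P30. The groups did not overlap, which held for 52.3% of all genes tested in this comparison. Ugt2a3, a glucuronosyltransferase known to accept bile acids, read 7.85 and 7.77 alone and 6.46 and 6.90 in co-culture (-1.13 ± 0.27, adjusted p = 0.0385). Ugt2b1, Ugt2b34 and Ugt2b35 had differences of -1.22, -0.41 and -1.16 that did not pass.

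In the Ces1 family, serine hydrolases that act on drug and lipid esters, 4 of 8 members fell. Ces1d, known as a triacylglycerol hydrolase, read 4.97 and 6.26 in organoids alone and 3.19 and 3.96 in co-culture (-2.04 ± 0.40, adjusted p = 0.0162). Ces1g read 8.21 and 7.65 alone and 5.72 and 6.20 in co-culture (-1.97 ± 0.48, adjusted p = 0.0431). In both genes each animal was lower in co-culture by more than the animals differed from each other. Ces1c fell by 1.72 ± 0.39 and Ces1b by 1.60 ± 0.28, the latter from 6.07 in both animals to 5.07 in P28 and 3.87 in P30. Ces1e and Ces1f had differences of -1.51 ± 0.55 and -1.34 ± 0.61, which did not pass (adjusted p = 0.178 and 0.292). Ces1a and Ces1h were low in every group.

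Ces3a, a further hydrolase of triacylglycerol, had the smallest p of all members. It read 5.14 and 5.06 in organoids alone and 3.19 and 3.43 in co-culture, a 3.46-fold difference (-1.79 ± 0.18, adjusted p = 5.4e-04). The Ces2 genes gave no call in the fit that leaves out the animal. Ces2a (-1.06), Ces2b (-1.09), Ces2e (-0.67) and Ces2g (-0.38) did not pass, though each was lower in co-culture in both animals. Ces2a differed by -1.23 in P28 and -0.89 in P30. Its SE of 0.83 rests on the spread in all groups, with an SD of 1.57 in adenoma. Ces2f had the largest positive difference of all members, from 4.82 and 4.37 alone to 6.10 and 6.09 in co-culture (1.50 ± 0.45, adjusted p = 0.0938). Its groups did not overlap, as in 52.3% of all genes tested. A replicate block for the animal in limma called it higher (adjusted p = 0.00546).

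Glutathione transferases and sulfotransferases gave 0 calls in this comparison among 17 and 11 tested members. All 6 Gstm genes had negative differences, from -0.32 for Gstm1 to -1.06 for Gstm7. Gsta4, which clears the lipid peroxidation product 4-hydroxynonenal, read 12.27 and 12.35 alone and 12.33 and 12.53 in co-culture, so that the groups overlapped. The sulfotransferase Sult1d1, which acts on catecholamines, differed by -0.53 ± 1.71 and Sult1b1, which acts on phenols and thyroid hormone, by -0.63 ± 1.04, where the SE rests on the spread in all 5 groups and the adenoma animals disagreed.

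**Figure D2:**
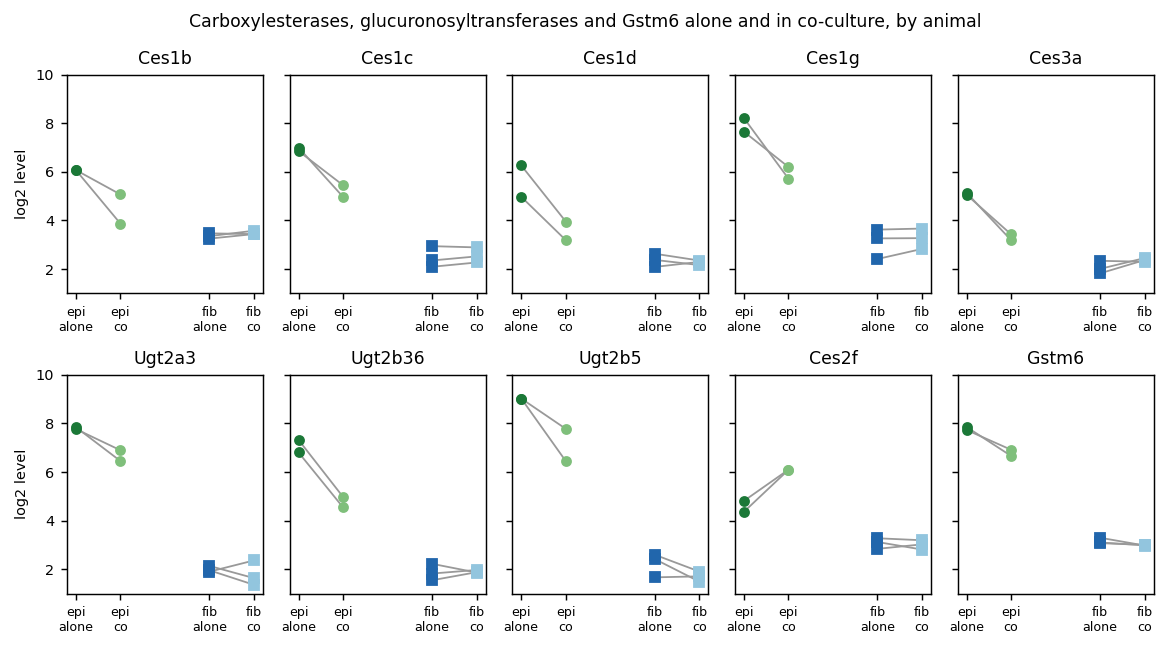
Log2 level of 10 members in organoids (epi, circles) and fibroblasts (fib, squares), alone and in co-culture (co), with a grey line for each animal. The 8 genes that fell slope down in both organoid animals, Ces2f slopes up from 4.82 and 4.37 to 6.10 and 6.09, Gstm6 slopes down without passing in the fit that ignores the animal, and the fibroblast values lie low in both cultures.

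The calls in co-culture depend on how the spread is estimated. The shares of all genes given above belong to the fit that leaves out the animal, and none are set beside the counts below. With the animal as a replicate block, which the labels support since both cultures came from the same animals, 13 members were lower (with Ces1e, Ces1f, Gstm6, Gstt2 and Ugt2b35 in addition) and 2 were higher, Ces2f (adjusted p = 0.00546) and Gstk1 (0.55, adjusted p = 0.0461). On the 4 organoid samples alone 0 passed. Leaving out P28 or 1 organoid sample left 1 sample in a group, and such fits cannot show whether a call holds. Without P28 and Pl_III the difference of Ces1b was -2.20, which is that of P30 alone. Within single animals the median difference over the 52 members was -0.49 in P28 and -0.43 in P30, with 44 and 45 negative. The enterocyte markers were lower in co-culture by a similar step, as given above, and the part of that in the members' fall was not tested.

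Genes that supply, regulate and follow these enzymes were read in co-culture from lists. Of 26 nuclear receptors and regulators 3 fell and 0 rose. The xenobiotic receptor CAR, Nr1i3, read 9.06 and 9.03 alone and 7.12 and 8.02 in co-culture (-1.47 ± 0.28, adjusted p = 0.0145), its coactivator Ppargc1a fell by 1.70 ± 0.39 and the fatty acid receptor Ppara by 0.90 ± 0.21. Of 9 efflux transporters 2 rose, Abcc4 by 1.77 ± 0.31 and Abcc1 by 1.29 ± 0.28, both pumps for conjugated anions. Among 10 other hydrolases only Aadac, an arylacetamide deacetylase, passed, with a fall of 0.87 ± 0.13. Of 9 targets of the aryl hydrocarbon receptor and of NRF2, Cyp1a1 fell from 6.74 and 7.14 to 3.82 and 4.76 (-2.65 ± 0.32, adjusted p = 0.00161), and Hmox1 rose by 1.34 ± 0.33. On the organoid samples alone the calls of all these genes were lost. That of Hmox1 was also lost with no filter, with cyclic loess and with single technical arrays. That of Ppara was also lost with cyclic loess and with a trended and robust prior. Fits that left 1 sample in an organoid group cannot show whether these calls hold. Enzymes of cofactor supply (13) and other conjugating enzymes (12) gave 0 calls, with Papss1, which makes the sulfate donor, at -0.78 ± 0.22 (adjusted p = 0.0773). The medians were -0.19 for the regulators, 0.37 for the transporters, -0.72 for the hydrolases, 0.08 for the receptor targets, -0.24 for cofactor supply and -0.26 for other conjugating enzymes, beside -0.02 over all genes.

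In fibroblasts co-culture moved no member. By limma 0 of 52 rose and 0 fell, against 0% of all genes that rose and 0.00553% that fell, and 2 members had an unadjusted p under 0.05. Differences ran from -0.70 to 0.54 with a median of 0.09. Most members are near or below the dim level in these cells, which limits what this test could read. Gstm2 and Gstp1, both bright in fibroblasts, differed by 0.12 ± 0.37 and 0.07 ± 0.23.

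The test of whether organoids and fibroblasts answered co-culture differently called 3 members with a more negative difference in organoids, against 0.271% of all genes, and 0 with a more positive one, against 0.834% (13 members at an unadjusted p under 0.05). They were Ugt2b36 (-2.34 ± 0.37, adjusted p = 0.0132), Ces3a (-2.11 ± 0.24, adjusted p = 0.00271) and Ces1b (-1.73 ± 0.36, adjusted p = 0.0461). In fibroblasts Ugt2b36 and Ces3a lay under the dim level in both cultures, so a fall there could not have been read. With the replicate block 9 were lower and 1, Ces2f, higher, and the shares of all genes above belong to the fit without it. Without P28 and Pl_III each organoid group held 1 sample, so that fit cannot show whether these calls hold.

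Adenoma cells were set against wild-type organoids alone to ask what the tumour cells keep of this equipment. Most carboxylesterases, all tested glucuronosyltransferases and all mu class glutathione transferases were lower. The glutathione transferases Gsta3, Gsta4, Gstp1, Gstp2 and Gsto1 did not pass. Of 52 members 33 were lower in adenoma, or 63.5%, where 18.5% of all genes were lower, and 0 were higher, where 22.5% of all genes were higher (limma; 33 members at an unadjusted p under 0.05). The median difference was -1.88, against -0.03 over all genes. For 8 of the 33 the adenoma mean lay under the dim level, so the size of their difference depends on the array's floor.

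All 6 tested Ugt2 genes fell. Ugt2b5 read 9.03 and 9.02 in organoids alone and 1.70, 1.84, 2.17 and 1.57 in P21, P23, P34 and P36 (-7.21 ± 0.34, adjusted p = 1.6e-08). Ugt2a3 (-5.77 ± 0.23) and Ugt2b36 (-4.68 ± 0.24) likewise ended under the dim level in adenoma. Ugt2b34 was different in degree, with 12.18 and 12.30 in organoids and 10.88, 10.64, 9.18 and 10.28 in adenoma, a 3.99-fold difference (SE 0.37 on the log2 scale, adjusted p = 8.6e-04). It thus fell past the threshold and stayed bright. Ugt2b35 read 9.63 and 9.82 in organoids and 5.89, 6.13, 3.97 and 4.51 in adenoma (-4.60 ± 0.53), and Ugt2b1 fell by 1.77 ± 0.33.

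Of the 8 Ces1 genes 6 fell. Ces1f read 10.16 and 10.56 in organoids alone and 3.76, 4.13, 2.95 and 5.54 in adenoma, a 77.0-fold difference (-6.27 ± 0.53, adjusted p = 2.0e-06). The lowest organoid value lay far above the highest adenoma value, that of P36. Ces1e read 8.05 and 8.18 in organoids and 2.67, 2.80, 3.21 and 4.70 in adenoma (-4.77 ± 0.48). Ces1g read 2.26, 3.30, 2.53 and 3.60 in adenoma (-5.00 ± 0.42), Ces1c fell by 3.74, Ces1d by 2.96 and Ces1b by 2.30.

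The Ces2 genes split. Ces2a read 10.87 and 10.78 in organoids alone and 4.66, 5.18, 2.13 and 2.32 in P21, P23, P34 and P36 (-7.25 ± 0.72, adjusted p = 6.9e-06). Ces2e, a major hydrolase of the intestinal wall, read 10.24 and 10.17 in organoids and 5.68, 5.08, 3.45 and 3.66 in adenoma (-5.74 ± 0.52, adjusted p = 3.6e-06). Ces2g, their neighbour, read 9.89 and 10.25 in organoids and 8.73, 8.56, 9.63 and 10.21 in adenoma (-0.78 ± 0.46, adjusted p = 0.203). In Ces2g the adenoma and organoid values overlapped, while in Ces2a and Ces2e they did not. Over all genes tested, 56.4% showed no overlap between these groups. The windows printed above hold CAAAGT in all 3 genes. Ces2f differed by -0.40 ± 0.39 (adjusted p = 0.461). Ces2b, Ces2h, Ces3a and the pseudogene Ces2d-ps fell by 1.33 to 2.78.

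All 6 Gstm genes, the mu class, fell in adenoma. Gstm3 read 11.75 and 11.74 in organoids alone and 7.67, 7.72, 7.68 and 8.16 in adenoma, a 15.3-fold difference (-3.94 ± 0.21, adjusted p = 4.8e-08). P21, P23 and P34 agreed closely here, and P36 lay higher. Gstm6 read 7.86 and 7.73 in organoids and 4.26, 4.22, 3.06 and 3.36 in adenoma (-4.07 ± 0.29), and Gstm7 read 8.04 and 8.53 in organoids and 4.89, 4.86, 5.29 and 5.79 in adenoma (-3.07 ± 0.48). Gstm1, Gstm2 and Gstm4 fell by 1.47 to 1.72. The call of Gstm4 was lost without the P30 organoids (-0.97, adjusted p = 0.276), without P21 and P23 and without P34 and P36. These genes are close copies in 1 cluster, and whether their probes are shared was not tested.

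The alpha pair did not pass. Gsta4 read 12.27 and 12.35 in organoids alone and 11.34, 11.58, 12.12 and 12.18 in adenoma (-0.51 ± 0.28, adjusted p = 0.175), and Gsta3 read 9.62 and 9.60 in organoids and 10.34, 10.21, 9.68 and 10.04 in adenoma (0.45 ± 0.24, adjusted p = 0.162). Gsta4 was below both organoid samples in all 4 animals and Gsta3 above both, without passing, and Gsta4 was called lower without P34 and P36. The pi genes Gstp1 (-0.09 ± 0.24) and Gstp2 (-0.30 ± 0.32) and the omega gene Gsto1 (0.39 ± 0.31), which reduces dehydroascorbate, did not pass either. Gstp3, from the same cluster as Gstp1 and Gstp2, read 8.47 and 8.38 in organoids and 5.18, 5.36, 4.20 and 4.35 in adenoma (-3.65 ± 0.29, adjusted p = 1.1e-06). The kappa gene Gstk1, an enzyme of mitochondria and peroxisomes, read 9.25 and 9.80 in organoids and 6.31, 5.99, 6.77 and 6.71 in adenoma (-3.08 ± 0.48). Of the theta class, Gstt2 read 6.44 and 7.18 in organoids and 5.34, 4.34, 3.62 and 2.84 in adenoma (-2.77 ± 0.56), Gstt1 fell by 2.85 ± 0.51 and Gstt3 by 1.44 ± 0.46. The call of Gstt3 was lost without the P30 organoids, without P34 and without P34 and P36.

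Among sulfotransferases outside the Sult1 family, 2 of 7 tested genes fell. Sult6b2 had the largest difference of all members, from 9.84 and 11.09 in organoids alone to 2.58, 3.09, 2.22 and 2.66 in adenoma (-7.83 ± 0.45, adjusted p = 8.3e-08). Sult2b1, which sulfates cholesterol and other sterols, read 9.80 and 9.46 in organoids and 7.05, 7.24, 6.47 and 6.08 in adenoma (-2.92 ± 0.33). The other 5 did not pass in either direction.

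**Figure D3:**
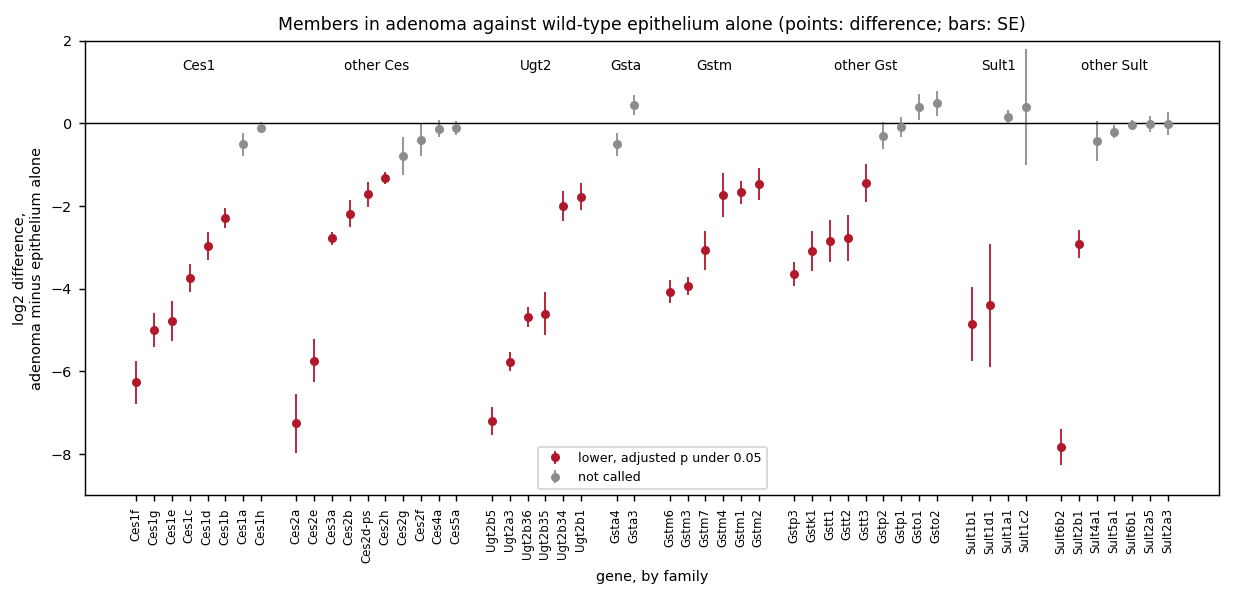
Log2 difference of each tested member, adenoma minus organoids alone (points, with bars of 1 SE), grouped by family and ordered within it. Red points are the 33 members that fell at an adjusted p under 0.05, grey points the 19 others. All Ugt2 and Gstm genes are red, the Gsta genes, Gstp1, Gstp2 and Gsto1 lie near 0, and Sult1c2 and Sult1d1 have the widest bars.

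Of the 4 tested Sult1 genes, Sult1b1, Sult1c2 and Sult1d1 divided the adenoma animals along the mark in their titles, by more than any other tested member. Sult1a1 read 3.43 and 3.49 in P21 and P23 and 3.28 and 3.40 in P34 and P36. Many other members had pairs that did not overlap, in either direction, among them Gsto1, Gstp1, Gstt1 and Gstm1. The share of all genes that did so was not counted. Sult1d1 read 3.09 and 3.06 in P21 and P23 but 8.60 and 9.15 in P34 and P36, against 10.37 and 10.39 in organoids alone (-4.41 ± 1.48, adjusted p = 0.0312). Sult1b1 read 2.50 and 2.30 in the first pair and 4.71 and 6.62 in the other, against 8.93 and 8.85 in organoids (-4.85 ± 0.90, adjusted p = 8.9e-04). Sult1c2 read 4.44 and 4.63 in the first pair and 9.59 and 10.19 in the other, against 6.26 and 7.39 in organoids (0.39 ± 1.40, adjusted p = 0.867). P34 and P36 were thus above every organoid sample for Sult1c2, and P21 and P23 below every one. Sult1d1 and Sult1b1 lie in the same cluster on chromosome 5 as Ugt2a3 and the Ugt2b genes, among which Ugt2a3 read 2.00, 2.18, 1.88 and 2.11 in P21, P23, P34 and P36, while Sult1c2 lies on chromosome 17.

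Splitting by the titles changed several calls. With P34 and P36 alone Sult1c2 was higher than in organoids alone (3.07, adjusted p = 4.2e-04), and with P21 and P23 alone it was lower (-2.29, adjusted p = 0.00202). Without P21 and P23, Gsto1 (0.93) and Gsto2 (0.97) were also higher. Without P34 and P36, Ces2g (-1.42), Gsta4 (-0.85) and Gstp2 (-0.81) were lower. The call of Sult1d1 was lost without either organoid sample and without P21 or P23, and that of Gstm2 without P30 and without P28 and Pl_III. Of the members 9 of 52, or 17.3%, ranged by more than 2 between adenoma animals, against 2.69% of all genes tested. Ces2a, Ces2e, Gstt2 and Ugt2b35 ran the other way, with P21 and P23 higher.

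Cell markers moved with the same mark. The 7 goblet cell markers averaged 9.54 and 10.11 in P21 and P23 and 4.75 and 5.40 in P34 and P36, and the 5 measured Paneth cell markers 9.13 and 9.88 against 3.45 and 3.27. Enterocyte markers were at 4.14, 4.26, 3.84 and 3.88, with 1, 1, 3 and 2 of 13 under the dim level, and immune markers lay between 3.79 and 3.92. The part of these cell types in the members' values was not tested.

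**Figure D4:**
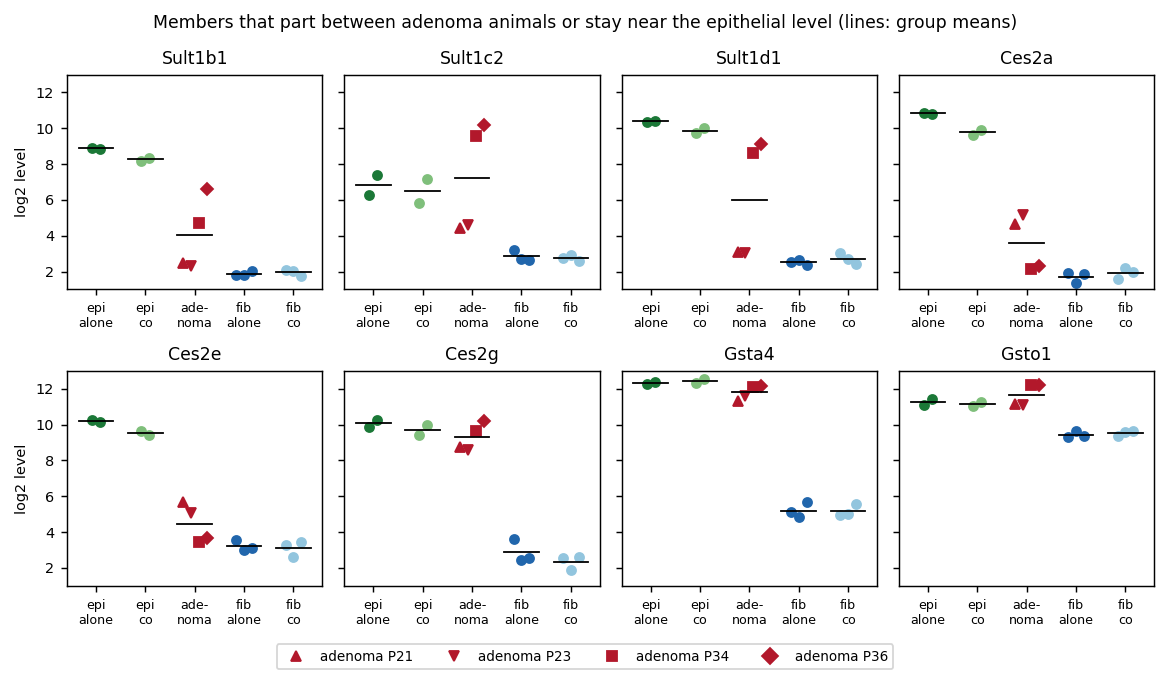
Log2 level of 8 members in every biological sample by group, with lines at the group means and a symbol for each adenoma animal. For Sult1b1, Sult1c2 and Sult1d1 the adenoma animals P34 and P36 lie above P21 and P23, for Ces2a and Ces2e below them, and Ces2g, Gsta4 and Gsto1 are bright in all 4 animals and lower in fibroblasts.

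Against co-cultured organoids, which shares the adenoma samples with the comparison above, 29 members were lower in adenoma, where 14.3% of all genes were lower, and 1 was higher, where 19% were higher. After cyclic loess over the arrays the all-gene counts were 2730 higher and 3110 lower in place of 3439 and 2583. The higher gene was Gsta3, a glutathione transferase active on reactive epoxides and steroid intermediates, at 9.16 and 9.05 in co-cultured organoids (0.96 ± 0.24, adjusted p = 0.00857). That call was lost without the co-cultured P30 sample, without P28 and Pl_III and without P21 and P23. The 12 largest falls were those of Sult6b2 (-7.06), Ces2a (-6.20), Ugt2b5 (-5.30), Ces2e (-5.07), Ces1f (-4.92), Ugt2a3 (-4.63), Sult1b1 (-4.22), Gstk1 (-3.64), Gstm3 (-3.50), Ugt2b35 (-3.44), Gstp3 (-3.43) and Ces1e (-3.26). The other 17 fell by 0.46 to 3.07. Ces2f, with its brighter signal in co-culture, was lower in adenoma here (-1.91 ± 0.39, adjusted p = 0.00242), and not without P28 and Pl_III (adjusted p = 0.0545). Sult6b1 fell by 0.46, from 2.71 in co-cultured organoids to 2.25 in adenoma, which is under the dim level. Only its mean in co-cultured organoids passed the filter, so the direction of this call was favoured by the filter and is not support. Ces1d (-0.92 ± 0.35, adjusted p = 0.0611), Gstm2, Gstm4, Gstt3, Sult1d1 and Ugt2b1 were called against organoids alone and not here, and the difference between these comparisons was not tested for them.

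The genes around these enzymes were lower in adenoma in part. Over all genes 18.5% were lower and 22.5% higher in this comparison, with a median of -0.03. Of 26 nuclear receptors and regulators 17 fell and 2 rose, with a median of -1.54. Ppara fell by 5.40 ± 0.19, Nr1i3 by 5.53 ± 0.24, Hnf4g by 4.93 ± 0.18 and Cdx1, an intestinal identity factor, by 4.59 ± 0.24. Hnf4a fell by 1.20 ± 0.27, from 11.08 and 11.15 in organoids alone to 10.29, 10.27, 9.48 and 9.63 in adenoma. Cofactor supply had 8 of 13 that fell and 0 that rose (median -0.69), among them the sulfate donor enzyme Papss1 (-2.02 ± 0.19), Bpnt1 (-1.37), Ugp2 (-1.25) and the glutathione synthesis enzyme Gclc (adjusted p = 6.6e-04). Efflux transporters exchanged places, with 4 of 9 that rose and 3 that fell (median 0.14). Abcc2, the apical pump for conjugates, read 11.44 and 11.59 in organoids alone and 5.19, 4.69, 3.56 and 3.40 in adenoma (-7.30 ± 0.43), while Abcb1b rose by 4.39 ± 0.42, Abcc4 by 2.93 ± 0.27 and Abcc1 by 2.39 ± 0.24. Other hydrolases had 6 of 10 that fell and 1 that rose (median -1.19), with Ephx2, the soluble epoxide hydrolase, at -6.65 ± 0.38, Aadac at -6.32 ± 0.11 and Bche at -4.91 ± 0.29. Other conjugating enzymes had 7 of 12 that fell (median -0.46), led by Mgst2 (-3.20 ± 0.38), and receptor targets had 5 rises and 4 falls among 9 (median 0.40), with Cyp1b1 at 5.39 ± 0.41 and Cyp1a1 at -4.00 ± 0.28. Among these targets the call of Txnrd1 was lost in 10 of 17 alternatives, that of Nqo1 in 8, that of Slc7a11 in 3 and that of Hmox1 in 1.

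Between the cell types grown alone, 40 members were lower in fibroblasts than in organoids, where 24.2% of all genes were lower, and 0 were higher, where 26.5% were higher (limma; 40 members at an unadjusted p under 0.05). The 12 largest differences were Ugt2b34 (-9.64), Ces2a (-9.11), Ces1f (-8.20), Gstm3 (-8.02), Sult1d1 (-7.86), Sult6b2 (-7.71), Ces2g (-7.19), Gsta4 (-7.11), Sult1b1 (-7.01), Ces2e (-6.98), Ugt2b35 (-6.80) and Ugt2b5 (-6.79). The other 28 fell by 1.32 to 5.94. Among them the call of Sult1c2 was lost in 6 alternatives, that of Ces2f without the P28 organoids and without P28 and Pl_III, and that of Gstm4 without the P30 organoids. For 15 of the 40 the fibroblast mean lay under the dim level. Some members were bright in fibroblasts all the same. Gstp1 read 10.55, 11.04 and 10.30 there, Gsto1 9.29, 9.66 and 9.38, and Gstm2 8.38, 8.21 and 7.70. Gstm2 was not called between the cell types (-0.48 ± 0.41, adjusted p = 0.364). The immune markers given above were present in these cultures, and their part in such levels was not tested.

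Read across the comparisons with organoids alone, 8 members were lower in co-cultured organoids, adenoma and fibroblasts, and they are the 8 listed for co-culture. A further 24 were lower in adenoma and fibroblasts, and 8 in fibroblasts only, namely Ces2f, Ces2g, Gsta3, Gsta4, Gsto1, Gstp1, Gstp2 and Sult1c2. Gstm2 was lower in adenoma only. These comparisons share the organoid samples, so their calls are not independent. The share of all genes with each of these patterns was not counted, so the counts describe the members only. The 11 that passed in none of these 3 comparisons included Sult1a1, a phenol sulfotransferase, at 3.41 and 3.08 in organoids alone, and Ces4a at 3.47 and 3.31. Gsto2 read 3.15 and 2.85 in organoids and 3.12, 2.87, 4.18 and 3.76 in adenoma. The 14 members left out as dim were Ces3b, Gstt4, Sult1c1, Sult1e1, Sult2a1, Sult2a2, Sult2a4, Sult2a6, Sult2a7, Sult2a8, Sult3a1, Sult3a2, Ugt2b37 and Ugt2b38, none with a group mean above 2.37. A further 14 symbols of the rule stood only on 9 probe sets with several names and were not read, namely Gsta1, Gsta2, Gstm5, Gstz1, Ugt2a1, Ugt2a2 and 8 of the Ugt1a family.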

How the data were processed

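The deposited table holds the authors' log2 levels per probe set. Per the submitters' processing notes it came from RMA, which removes background, equalises the arrays' distributions and joins probes into sets. A change shared by most transcripts would be hidden by it, and low values are compressed. Library file and build were not given in the sources used. Labelling started from 150 ng of RNA, per the labels' protocols. The table held 41345 probe sets on 16 arrays.

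Members and gene lists were chosen with earlier results of these data known. Probe sets with 1 gene symbol in the platform annotation (23521 of 41345) were used, the brightest per gene, and each member had 1. Genes whose highest group mean was at or below the 30th percentile were left out. Group means were fitted with limma 3.58.1 in R 4.3.3 with 1 spread for all 5 groups (11.7 degrees of freedom), with 2-sided tests and Benjamini-Hochberg adjustment over 18095 genes, called at an adjusted p under 0.05. P-values rest on the spread between the 14 biological samples within their groups. These came from 9 animals, and this fit treats both cultures of an animal as independent samples. Technical repeats differed by a median of 0.16 in P21 and 0.21 in P34 over the 66 members.

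The labels give both cultures of P28, P30, Pl_I, Pl_II and Pl_III to 1 animal each. Deviations from the group means correlated within animals at 0.33 in organoids and at 0.62, 0.51 and 0.79 in fibroblasts. One alternative took the animal as a replicate block. Others used no filter, a filter at the 50th percentile, the compared groups only, cyclic loess, a trended and robust prior, the mean of probe sets and single technical arrays. Samples were also left out, namely P28 and Pl_III, P21 and P23, P34 and P36, and each sample in turn. Leaving out P28 or 1 organoid sample left 1 sample in an organoid group, and the spread then rested on the groups that held more. A call lost in such a fit does not show that it fails to hold. A random replicate block was added after seeing the data.

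Named with values were all members called, or the 12 largest where more were called in a direction. Sample values were given for up to 3 members per family with the largest called difference, and up to 4 genes per list were named. Sample values of further members, Hnf4a, Abcc2, Nr1i3 and Cyp1a1 were chosen after they were seen. Promoter windows came from RefSeq tables on GRCm38.p6. Functions were tested on simulated data.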

Additional observations from a re-analysis of the deposited data

Results flagged for a closer look

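In adenoma 1 animal lay apart from the other 3 for 3 genes, by the share of the group's range that separates it from its nearest neighbour, which passed Dixon's critical value for 4 samples. The share was 0.847 for Gstm2, where P34 read 6.07 and the others 7.34 to 7.57. It was 0.912 for Gstm3, where P36 read 8.16 and the others 7.67 to 7.72, and 0.866 for Ugt2b1, where P36 read 3.31 and the others 3.00 to 3.04, close to the dim level. Such gaps come by chance in about 1 in 20 groups, and 93 sets of adenoma values, of genes and of marker list means, were examined.

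The interaction term in limma, the co-culture difference in organoids minus that in fibroblasts, passed for Ces1b (-1.73), Ces3a (-2.11), Ugt2b36 (-2.34) and, among the genes around the members, the aryl hydrocarbon receptor target Cyp1a1 (-2.52). Ces3a and Ugt2b36 lay under the dim level in fibroblasts and Cyp1a1 between 2.57 and 3.35, so a fall there could hardly be read, and the term then largely restates the fall in organoids. Without P28 and Pl_III none of these 4 passed.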

How the results depend on the processing

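Of the members called in the main tests, 29 of 33 kept their call under all alternatives for adenoma against organoids alone, 19 of 30 for adenoma against co-cultured organoids, 37 of 40 between the cell types, 0 of 8 for co-cultured organoids and 0 of 3 for the interaction. In co-cultured organoids the count of lower members went from 8 to 0 on the compared groups only, to 1 without P28 and Pl_III, to 13 with the replicate block (with 2 higher) and, with 2 higher too, to 12 with a random replicate block chosen after seeing the data (correlation 0.46). It was 3 to 5 with single samples left out. For the interaction the count of lower members went from 3 to 9 with the replicate block and 6 with the random one (1 higher in each), to 0 without P28 and Pl_III and to between 1 and 3 with single samples left out, and 1 was higher on the compared groups only. In adenoma 3 were higher than in organoids alone, and 3 than in co-cultured organoids, without P21 and P23. No share of all genes stands beside the counts of these alternative fits, so they cannot be set against the background. Against co-cultured organoids the call of Gsta3 was lost without P21 and P23. Sult1c2 turned from 0.39 to -2.29 against organoids alone and from 0.69 to -1.99 against co-cultured organoids without P34 and P36. The call of Sult1d1 against organoids alone was lost in 6 alternatives and that of Ces1b against co-cultured organoids in 11. The replicate block could not be fitted for comparisons between animals, and it changed no call in fibroblasts. Signal near the dim level limits what falls can be read in fibroblasts and adenoma.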
